A study of Homo sapiens with 8 samples.

Results

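RAPSN, RASL11A, COLEC11 and CAPN15 are the 4 genes that went from little to substantial RNA polymerase II (RNAPII) coverage when a breast cancer cell line was treated with a CDK9 inhibitor, and CELF1, RPL21, RPS7 and RAB11FIP3 are the protein-coding genes that lie directly upstream of them on the same strand. The 4 newly covered genes were chosen by their own measured coverage, that is, the share of gene body bases lying in called RNAPII peaks: at most 10% in each vehicle library and at least 40% in each inhibitor library, where the gene body starts 300 bp downstream of the transcription start site (TSS) and ends 3 kb past the transcription end site (TES). Of 10179 genes with a length of 1 kb or more and no neighbour within 3 kb, 4 met these limits, which is 0.0393% of those examined, and nothing is read from that share because the rule made it. The other 4 members were chosen by position only, so the set holds 8 of the 19794 protein-coding genes in the annotation. In the opposite direction, 85 genes were covered at 40% or more in each vehicle library and at 10% or less in each inhibitor library.

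RNAPII starts at a promoter, commonly pauses shortly after it, and is released into elongation when CDK9, the kinase of P-TEFb, phosphorylates the polymerase and its pausing factors. After the TES, transcription continues for some distance until the polymerase is released from the template, so signal between a gene and its downstream neighbour can belong to either gene, and peaks from an assay without strand information cannot be assigned to one of them. The loci were therefore mapped from the upstream TSS, through the gap between the genes, to the target TES, and every annotated start in between was examined for a peak of its own.

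RNAPII chromatin immunoprecipitation and sequencing (ChIP-seq) was performed in MDA-MB-453, an established human breast cancer cell line, after 4 h with vehicle or with 600 nM of the CDK9 inhibitor CDDD11-8. Each group had 2 biological replicates, grown as separate passages, and both used the same RNAPII antibody. All values come from this 1 cell line at 1 dose and 1 time. The vehicle lists held 78306 and 57493 peaks and the CDDD11-8 lists 25897 and 21842. They covered 108 and 87.3 Mb of the genome with vehicle and 67.7 and 54.6 Mb with CDDD11-8. The peak lists carry no read totals, so depth is unknown and differences in depth or scaling between the lists cannot be told apart from differences in RNAPII. Below, values for vehicle replicates 1 and 2 are followed by those for CDDD11-8 replicates 1 and 2. Fold enrichment is the peak caller's ratio of signal to local background within 1 library and is compared within libraries. Positions along a locus are in kb from the target TSS, negative upstream, and genome coordinates are those of GRCh37.

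RAPSN encodes rapsyn, which clusters acetylcholine receptors at the neuromuscular junction. It spans chr11:47459315-47470695 on the minus strand (11.4 kb), and CELF1, an RNA-binding protein that acts in splicing and mRNA decay, spans chr11:47487489-47574684 on the same strand, with a gap of 16.8 kb that contains no other annotated gene. The gene body of RAPSN was covered at 0% and 0% in the vehicle libraries and at 76.9% and 68.0% in the CDDD11-8 libraries. COLEC11 encodes a collectin, a secreted lectin of innate immunity. It spans chr2:3642422-3692234 on the plus strand (49.8 kb) and follows RPS7, a cytosolic ribosomal protein gene at chr2:3622850-3628510, after a gap of 13.9 kb without another annotated gene. COLEC11 was covered at 2.99% and 3.23%, then at 74.0% and 53.2%. These are the members with no promoter peak in vehicle.

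RASL11A, a small RAS-like GTPase, and CAPN15, a member of the calpain protease family, had promoter peaks before treatment. RASL11A lies at chr13:27844967-27849329 on the plus strand (4.36 kb), downstream of the ribosomal protein gene RPL21 at chr13:27825695-27830705, across a gap of 14.3 kb with no other annotated gene. Its body was covered at 4.36% and 6.67%, then at 68.6% and 42.8%. CAPN15 lies at chr16:577712-604636 on the plus strand (26.9 kb), downstream of RAB11FIP3 at chr16:475649-573011, an effector of RAB11 in endosome recycling and cytokinesis. The gap here was 4.70 kb and held 1 annotated gene, the minus-strand long non-coding RNA LINC00235 at chr16:575155-577407. CAPN15 was covered at 3.18% and 9.03%, then at 71.2% and 45.5%. RASL11A was the member nearest the 40% limit, and at a −log10 q-value of at least 5 its coverage in CDDD11-8 replicate 2 was 28.7%, below it. CAPN15, at 9.03% in vehicle replicate 2, was nearest the 10% limit. The genes just outside the 40% limit were FOS, an immediate early transcription factor (6.93% and 2.65%, then 46.6% and 39.9%), HPX, which encodes the haem carrier hemopexin (1.91% and 1.69%, then 67.8% and 36.9%), and EID2 (4.14% and 7.44%, then 36.1% and 35.0%).

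**Figure D1:**
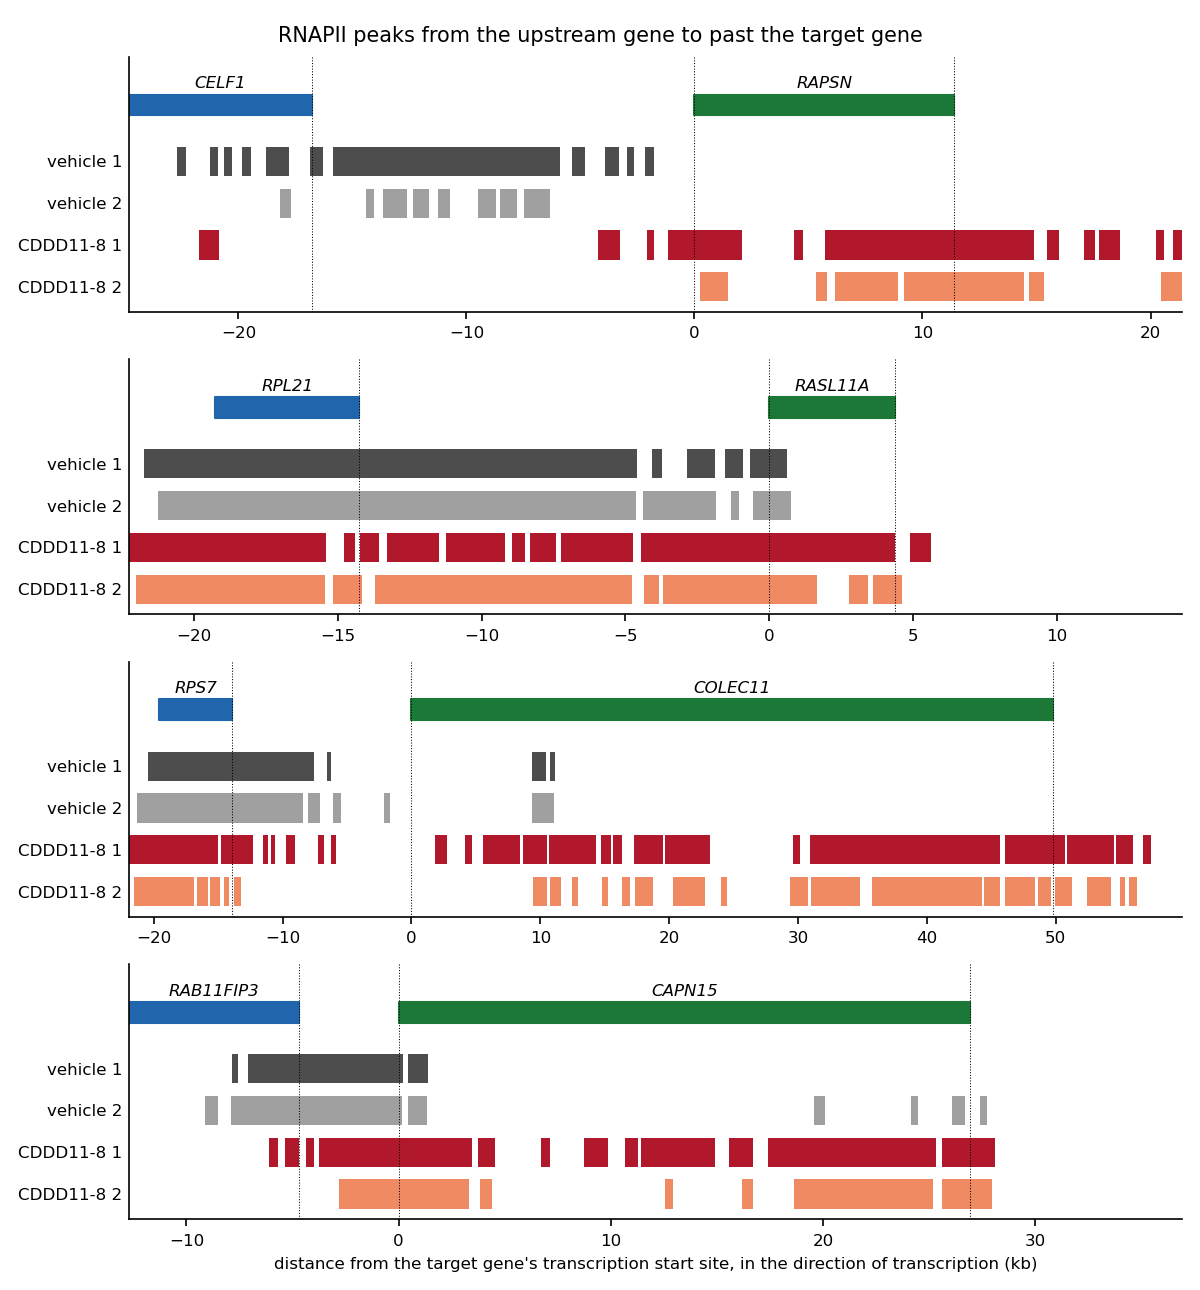
RNAPII peaks in the 4 libraries (rows) from the last 8 kb before the upstream TES to 10 kb after the target TES; x axis, kb from the target TSS in the direction of transcription; blue bars, upstream gene; green bars, target gene; dotted lines, upstream TES, target TSS and target TES. With CDDD11-8 the RAPSN and COLEC11 peaks are separated from the upstream gene by a peak-free stretch. The COLEC11 peaks with vehicle are separated from RPS7 too, whereas peaks run from RPL21 to RASL11A in all 4 libraries.

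The targets differed in what lay at their own promoters. Windows from 200 bases before the TSS to 30 bases from it are shown for 3 of the targets to let the promoters be compared, in lower case with CpG dinucleotides in capitals, read from the GRCh37 genome on the strand of the gene. They are chr2:3642222-3642451 (plus) for COLEC11, chr13:27844767-27844996 (plus) for RASL11A and chr16:577512-577741 (plus) for CAPN15.
COLEC11: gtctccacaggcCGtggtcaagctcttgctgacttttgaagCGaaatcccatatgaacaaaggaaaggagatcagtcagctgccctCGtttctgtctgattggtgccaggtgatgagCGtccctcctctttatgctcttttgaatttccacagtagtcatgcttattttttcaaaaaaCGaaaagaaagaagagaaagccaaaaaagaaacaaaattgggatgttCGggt
RASL11A: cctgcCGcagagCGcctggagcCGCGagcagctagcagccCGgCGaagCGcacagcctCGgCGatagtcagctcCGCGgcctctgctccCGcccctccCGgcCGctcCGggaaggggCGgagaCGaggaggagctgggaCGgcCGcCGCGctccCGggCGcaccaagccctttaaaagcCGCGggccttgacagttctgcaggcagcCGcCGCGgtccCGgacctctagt
CAPN15: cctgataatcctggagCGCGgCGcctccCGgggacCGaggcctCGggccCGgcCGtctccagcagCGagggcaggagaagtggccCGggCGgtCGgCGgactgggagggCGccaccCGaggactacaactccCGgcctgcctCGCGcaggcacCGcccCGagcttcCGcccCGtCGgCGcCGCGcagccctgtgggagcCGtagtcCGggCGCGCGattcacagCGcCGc

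The window of COLEC11 held 6 CpG dinucleotides, against a median of 17.0 over 19794 promoters. RASL11A held 29 and CAPN15 held 33, more than 83.5% and 91.1% of promoters. The letters GGGCGG, searched on both strands, were present in RASL11A and CAPN15 and in 53.7% of all promoter windows of this length. They were not present in the COLEC11 window. TATAAA, found in 8.11% of promoters, was in none of these 3.

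Summits within 300 bp of the TSS were then compared. RAPSN had no peak there in either vehicle library. In CDDD11-8 replicate 1 it had a 4.28-fold summit at 194 bp, and in replicate 2 a peak overlapped the promoter but its highest summit, 4.00-fold, lay at 901 bp. The summit of replicate 1 was weak beside the 25.1-fold median of the 7568 genes with a summit this close to the TSS in all libraries. COLEC11 had no peak at this promoter in any library.

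RASL11A had a summit at its promoter in every library, of 2.32-fold and 4.67-fold enrichment with vehicle and 11.2-fold and 12.5-fold with CDDD11-8. All 4 values were below the medians of those 7568 genes, 5.49 and 7.90, then 25.1 and 16.4. The CAPN15 promoter lay inside a peak in every library, but no summit fell within 300 bp of its TSS. The highest summit within 1 kb lay upstream, at −549, −448, −521 and −427 bp (4.61-fold and 8.40-fold, then 36.8-fold and 18.1-fold), on the far side of the LINC00235 start at −305 bp. The strongest summit within the CAPN15 body lay at 664, 663, 676 and 724 bp after the TSS. These summits lay on either side of the 2 divergent starts. The assay has no strand, so signal around the starts was not assigned to one gene.

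The upstream genes all had a summit within 300 bp of the TSS in every library. CELF1 reached 5.11-fold and 8.19-fold enrichment with vehicle and 43.2-fold and 21.9-fold with CDDD11-8. RPL21 gave 11.6 and 9.55, then 28.1 and 28.1. The shape of the peak over the ribosomal protein genes changed too. The peak over the RPL21 promoter was 17133 and 16639 bp wide with vehicle and 7010 and 6582 bp wide with CDDD11-8, so with vehicle it ran through the whole gene and far into the gap. For RPS7 the peak was 12860 and 12915 bp, then 6934 and 4689 bp. Its summit at the promoter was 6.15-fold and 8.47-fold, then 31.2-fold and 17.4-fold. In some vehicle libraries the highest summit of these long peaks lay past the TES, 12.4-fold after RPL21 in replicate 2 and 10.2-fold after RPS7 in replicate 1. RAB11FIP3 reached 4.05-fold and 13.2-fold, then 26.1-fold and 24.3-fold. In contrast to the ribosomal protein genes, the CELF1 promoter peak was 2404 and 2262 bp wide with vehicle and 5662 and 4659 bp with CDDD11-8, and that of RAB11FIP3 was 2339 and 2721, then 3941 and 3581 bp.

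Outside the RPL21 to RASL11A locus, the gaps, which the rule did not use, did not gain coverage together with the genes downstream of them. Coverage of the CELF1 to RAPSN gap was 73.3% and 31.9% with vehicle and 14.5% and 0% with CDDD11-8. Every CDDD11-8 value lay below every vehicle value, while the vehicle libraries differed widely from each other (mean difference −45.3 percentage points; p = 0.333 by an exact permutation test, two-sided, which with 2 against 2 libraries cannot go lower). Without vehicle replicate 1 the difference was −24.6 points, and at equal numbers of peaks in each list the values were 59.3% and 4.26%, then 12.7% and 0%, and overlapped (−25.5 points, exact permutation p = 0.667). The RPS7 to COLEC11 gap fell in the same order, from 47.7% and 54.7% to 27.6% and 3.93%, again without overlap (−35.5 points, exact permutation p = 0.333; −23.6 without CDDD11-8 replicate 2). The RAB11FIP3 to CAPN15 gap was covered at 100% and 100%, then at 87.4% and 59.8% (−26.4 points, exact permutation p = 0.333). Its size rested on 1 library, at −12.6 points without CDDD11-8 replicate 2 and −40.2 without replicate 1, and with peaks up to 1 kb apart joined the values were 100% and 100%, then 100% and 59.8%, and overlapped. No test in this design can therefore pass the usual threshold.

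The RPL21 to RASL11A gap stood apart. It was covered at 86.1% and 91.5% with vehicle and at 90.0% and 92.8% with CDDD11-8, and these values overlapped (2.61 points, exact permutation p = 0.667). Within it the sides moved in opposite directions. The side next to the RPL21 TES, up to the middle of the gap, was covered at 100% and 100%, then at 83.8% and 93.7%, and the side next to the RASL11A TSS at 72.2% and 82.9%, then at 96.2% and 91.9%, neither with overlap (exact permutation p = 0.333 for each side). The call that this gap overlapped depended on the weak peaks: with equal numbers of peaks in the lists it was covered at 72.4% and 71.5%, then at 86.9% and 92.8%, without overlap (17.9 points, exact permutation p = 0.333).

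Averaged over the 4 gaps, coverage was 76.8% and 69.5% with vehicle and 54.9% and 39.1% with CDDD11-8 (73.2 ± 5.13% against 47.0 ± 11.1%, SD, n = 2 libraries each; difference −26.1 points, exact permutation p = 0.333). Both CDDD11-8 values were the lower ones in 3 of the 4 gaps, a direction seen in 21.1% of all 3876 gaps of 1 to 20 kb between same-strand neighbours. They were the higher ones in 0 of the 4, a direction seen in 18.0% of those gaps. The RAB11FIP3 to CAPN15 gap, at 100% in both vehicle libraries, could not rise. The counts were 2 lower and 1 higher at equal numbers of peaks, 3 lower and 1 higher at the stricter q-value, and 2 lower and 0 higher with peaks joined or with the gaps trimmed at both ends. With vehicle each of the 4 gaps was covered further than the median gap, which over all 3876 was at 11.9% and 9.68% with vehicle and 9.82% and 5.77% with CDDD11-8. The 4 gaps thus had more coverage to lose than the median gap. The shares over all gaps are therefore not a like comparison, and nothing is read from the difference.

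**Figure D2:**
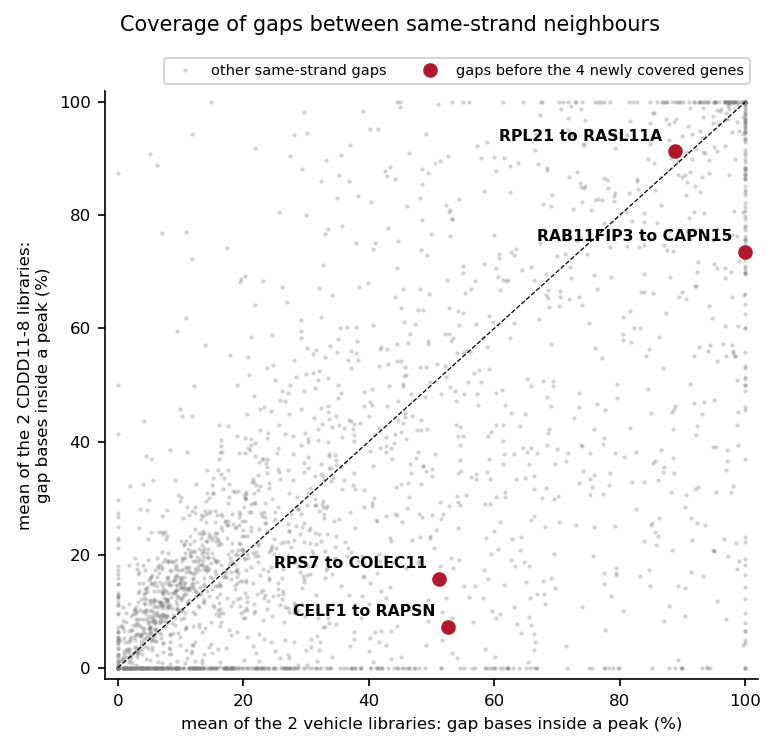
Percent of gap bases inside a peak, mean of the 2 vehicle libraries (x axis) against mean of the 2 CDDD11-8 libraries (y axis), for 3876 gaps of 1 to 20 kb between same-strand protein-coding neighbours; grey points, other gaps; red points, the 4 gaps before the newly covered genes; dashed line, equal coverage. CELF1 to RAPSN (52.58% against 7.27%), RPS7 to COLEC11 (51.25% against 15.77%) and RAB11FIP3 to CAPN15 (100% against 73.61%) lie below the line, and RPL21 to RASL11A (88.77% against 91.39%) lies close to it.

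The losses without overlap between the groups were on the side next to the upstream TES. The side of the gap next to the CELF1 TES was covered at 94.7% and 42.7% with vehicle and at 0% and 0% with CDDD11-8, and that next to the RPS7 TES at 90.9% and 93.1%, then at 48.2% and 7.86%. Next to the RAB11FIP3 TES the values were 100% and 100%, then 74.8% and 19.6%. In all 3 the groups did not overlap (exact permutation p = 0.333 for each). The sides next to the target TSS overlapped in these 3 loci: 51.8% and 21.1%, then 29.1% and 0% before RAPSN, 4.60% and 16.4%, then 6.97% and 0% before COLEC11, and 100% in all 4 libraries before CAPN15. The mean still fell on that side before RAPSN and COLEC11 (−21.9 and −7.03 points). The minus-strand LINC00235 ends at chr16:575155, within the side next to the RAB11FIP3 TES, so signal there was not assigned to one gene.

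Unbroken coverage after each upstream gene was measured as the length covered from its TES on, with peaks up to 1 kb apart joined. It has no strand and was not assigned to the upstream gene. After CELF1 it was 14997 and 0 bp with vehicle and 0 and 0 bp with CDDD11-8, so the vehicle value rests on replicate 1. After RPS7 it was 7640 and 8463 bp, then 4889 and 713 bp, shorter in both CDDD11-8 libraries (exact permutation p = 0.333). After RAB11FIP3 the whole gap of 4700 bp was bridged in both vehicle libraries and in CDDD11-8 replicate 1, and 0 bp in CDDD11-8 replicate 2. The peak that reached the CAPN15 TSS took in LINC00235 in every library. After RPL21 the whole gap of 14261 bp was bridged in each of the 4 libraries. The length was shorter in both CDDD11-8 libraries in 1 of the 4 gaps, RPS7 to COLEC11, against 14.2% of the 3876 gaps, and the mean over all gaps was 1349 and 1086 bp, then 675 and 534 bp. A gap with a length of 0 bp with vehicle could not shorten, so that share is not a like comparison either.

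At CELF1 to RAPSN and at RPS7 to COLEC11 the target coverage was thus not joined to the upstream gene. Between the CELF1 TES and the RAPSN TES, the longest stretch without a peak in the CDDD11-8 libraries was 12553 bp, from −16794 to −4242 bp, and 17025 bp, from −16794 to 230 bp. In CDDD11-8 replicate 2 the first peak after CELF1 therefore began inside RAPSN. For COLEC11 the longest stretch was 7735 bp, from −5875 to 1859 bp, and 22628 bp, from −13198 to 9429 bp. Both stretches took in the annotated COLEC11 TSS. With vehicle the longest stretch lay over the target instead. It was 38669 and 38720 bp inside COLEC11, and at RAPSN it began in the gap at −1796 and −6323 bp and ran to the end of the gene. A shorter break crossed the COLEC11 TSS with vehicle too. The last peak before that TSS ended at −6272 and −1658 bp, and the next began at 9337 and 9395 bp. The longest peak-free stretch of the RPS7 to COLEC11 gap was 6271 and 3307 bp, then 5875 and 13198 bp, with overlap (exact permutation p = 0.667). At RPL21 to RASL11A the longest stretch in the gap was 873 and 511 bp, then 293 and 452 bp, so no long break separated the genes in any library.

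Gene bodies of the upstream genes, to the TES, were covered less. CELF1 was covered at 23.0% and 5.74% with vehicle and at 4.84% and 2.47% with CDDD11-8, RPL21 at 100% and 100%, then at 83.9% and 94.2%. RPS7 gave 100% and 100%, then 96.7% and 82.3%, and RAB11FIP3 gave 4.49% and 5.76%, then 2.95% and 2.04%. No gene showed overlap between the groups (exact permutation p = 0.333 for each). Single libraries set the size of 3 of the differences: for CELF1 −10.7 points became −2.08 without vehicle replicate 1 and −19.3 without replicate 2, for RPL21 −11.0 became −5.82 without CDDD11-8 replicate 1, and for RPS7 −10.5 became −17.7 without CDDD11-8 replicate 1 and −3.28 without replicate 2. In 4 of the 4 upstream genes both CDDD11-8 values were the lower ones, against 37.1% of the 9602 genes whose promoter overlapped a peak in every library. This is not a like comparison, because RPL21 and RPS7 were at 100% in both vehicle libraries and could not rise. With peaks joined both were at 100% in every library. The mean over the 4 upstream genes was 54.9 ± 2.82% and 46.2 ± 1.31% (SD, n = 2 libraries each; −8.70 points, exact permutation p = 0.333). The CELF1 value depended on weak peaks, with 5.12% and 1.60%, then 4.27% and 2.47% at equal numbers of peaks, and the groups then overlapped.

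Along RAPSN, COLEC11 and CAPN15, coverage was highest towards the end of the gene. With each gene divided into 5 equal segments from TSS to TES, RAPSN was covered in the CDDD11-8 libraries at 92.1% and 54.9% in segment 1, 8.35% and 0% in segment 2, 56.9% and 49.7% in segment 3, 100% and 91.4% in segment 4 and 100% and 95.9% in segment 5, and at 100% and 100% in the 3 kb after the TES. Both vehicle libraries were at 0% throughout. COLEC11 was covered at 55.8% and 5.34% in segment 1, 81.2% and 43.8% in segment 2, 35.7% and 35.2% in segment 3, 92.7% and 88.3% in segment 4 and 96.1% and 90.8% in segment 5, with 94.6% and 56.1% in the 3 kb after the TES. In segment 1 its groups overlapped (6.27% and 5.69% with vehicle), while segments 3 to 5 were at 0% in both vehicle libraries.

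CAPN15 also had a dip after the start. With CDDD11-8 it was covered at 78.8% and 72.6% in segment 1, 30.5% and 0% in segment 2, 84.5% and 7.09% in segment 3, 86.8% and 63.6% in segment 4, and 95.1% and 92.8% in segment 5. Vehicle replicate 2, but not replicate 1, had some coverage late in the gene (9.66% in segment 4 and 17.4% in segment 5, against 0% and 0%). RASL11A, the shortest target, differed and was covered over 100% of every segment in CDDD11-8 replicate 1. In replicate 2 its segments 1 to 5 were at 100%, 92.1%, 0%, 74.3% and 85.3%, and with vehicle only segment 1 was covered (69.7% and 88.4%).

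In all 3 members of at least 10 kb, RAPSN, COLEC11 and CAPN15, segment 5 was covered further than segment 1 in both CDDD11-8 libraries. This was so in 20.3% of the 79 genes of that length with at least 40% coverage in both CDDD11-8 libraries, a group that includes these 3. The measure was chosen after the loci had been mapped. The rule chose the 3 members by coverage of these same gene bodies, with a limit in vehicle that the 79 genes did not have to meet. Nothing is therefore read from the difference.

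**Figure D3:**
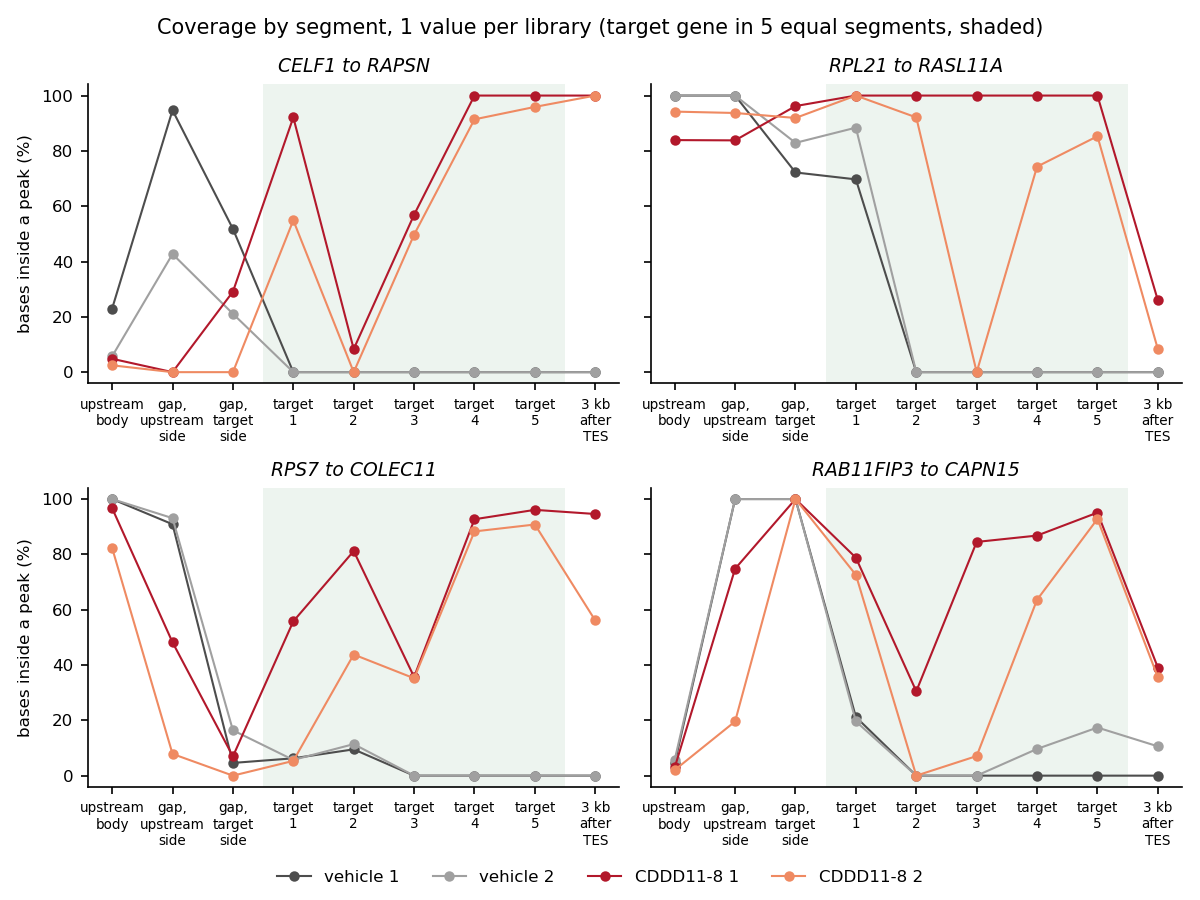
Percent of bases inside a peak (y axis) in the upstream gene body, the gap sides, the 5 equal segments of the target gene from TSS to TES (shaded) and the 3 kb after the target TES (x axis); lines join the values of 1 library, in grey for vehicle and red or orange for CDDD11-8. Segment 5 reaches 90.8% or more in both CDDD11-8 libraries for RAPSN, COLEC11 and CAPN15, while the gap side next to CELF1 is at 0% in both.

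Newly covered bases, those inside a peak in each CDDD11-8 library but in no vehicle library, were fixed by the rule inside the targets and are given there as a description. They made up 6247 bp of RAPSN (54.9%), 22845 bp of COLEC11 (45.9%), 10105 bp of CAPN15 (37.5%) and 2299 bp of RASL11A (52.7%). In the gaps they made up 0 bp before RAPSN, COLEC11 and CAPN15 and 543 bp (3.81%) before RASL11A, and bases lost in the same sense came to 5356 bp (31.9%) before RAPSN, 2901 bp (20.9%) before COLEC11, 592 bp (12.6%) before CAPN15 and 108 bp before RASL11A. The longest new stretch at RAPSN, chr11:47456222-47461497, was 5276 bp and crossed its TES, from 9.20 to 14.5 kb. In COLEC11 the longest was 8528 bp, from 35.7 to 44.3 kb. New coverage in the 20 kb after the target TES reached 3927 bp after RAPSN, 3809 bp after COLEC11, 1913 bp after CAPN15 and 21 bp after RASL11A.

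The number of summits inside the targets varied widely. RAPSN held 0 and 0 summits with vehicle and 17 and 19 with CDDD11-8, of 4.48-fold and 3.08-fold median enrichment. The strongest lay late in the gene, 8.24-fold at 10.9 kb in replicate 1 and 4.63-fold at 7.82 kb in replicate 2. COLEC11 held 4 and 3 summits with vehicle and 68 and 54 with CDDD11-8, CAPN15 1 and 5, then 33 and 23, and RASL11A 0 and 1, then 9 and 3. The log2 ratio of the strongest target summit from 300 bp after the TSS on to the strongest summit within 300 bp of the upstream TSS, formed within each library, was −2.39 and −2.24 for RAPSN with CDDD11-8, −1.88 and −3.00 for RASL11A, −1.70 and −1.44 for COLEC11 and −0.33 and −0.83 for CAPN15. The target was below the upstream promoter in each of these. With the RASL11A promoter summit included, its ratios were −1.32 and −1.17. With vehicle the ratio was −0.22 and −0.58 for COLEC11 and −0.21 and −1.52 for CAPN15. It was −1.49 for RASL11A in replicate 2, could not be formed there in replicate 1, and could not be formed for RAPSN.

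Before RASL11A, where peaks were nearly continuous, the median enrichment of gap summits next to the RPL21 TES was 7.45-fold and 7.58-fold with vehicle and it fell to 3.87-fold and 2.93-fold next to the RASL11A TSS. With CDDD11-8 it was 3.49-fold and 4.72-fold next to RPL21 and 3.92-fold and 3.83-fold next to RASL11A. The decline along the gap was thus seen in both vehicle libraries and in CDDD11-8 replicate 2, and not in CDDD11-8 replicate 1. The RASL11A promoter summit then rose above all gap summits on that side in both CDDD11-8 libraries (11.2-fold and 12.5-fold, against a highest value of 6.16 and 4.70). In vehicle it did not (2.32-fold and 4.67-fold against 6.97 and 7.09), but those highest gap summits lay at −5.54 and −5.49 kb. In vehicle replicate 2 the promoter summit was above the gap summits from −4.24 kb on, which reached 2.98-fold. In vehicle replicate 1 it was below a 2.70-fold summit at −3.94 kb.

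Annotated starts of any gene type in the gaps and targets were then examined for a peak within 300 bp. At COLEC11 there were 11 starts. The 6 starts that lie at or within 0.322 kb of the main TSS had no peak in any library. A peak was present in all 4 libraries at 3 starts further in: those of the alternative COLEC11 transcripts at 10.9 and 11.2 kb, and that of a minus-strand long non-coding RNA, ENSG00000237370, at 9.41 kb. The strongest COLEC11 summit lay between these starts, at 10.3 kb, in both vehicle libraries (5.28-fold and 5.68-fold) and in CDDD11-8 replicate 1 (9.62-fold). In replicate 2 the strongest was at 41.9 kb (6.41-fold), and its peak from 9.43 to 10.5 kb reached 4.39-fold. Within 300 bp of the COLEC11 start at 10.9 kb the highest summits were 3.29-fold and 2.60-fold with vehicle. With CDDD11-8 they were 9.47-fold and 5.88-fold, in replicate 2 above the 4.39-fold summit between the starts. The sequence around the inner summit at 10.3 kb is shown, chr2:3652615-3652845 on the plus strand. It lies in the only stretch of COLEC11 with peaks before treatment.
COLEC11 inner summit: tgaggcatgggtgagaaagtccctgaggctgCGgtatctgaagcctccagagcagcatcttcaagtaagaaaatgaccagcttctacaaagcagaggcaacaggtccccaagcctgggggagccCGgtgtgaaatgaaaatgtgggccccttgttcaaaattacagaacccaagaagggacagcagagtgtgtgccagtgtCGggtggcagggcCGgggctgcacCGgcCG

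This window of 231 bases held 6 CpG dinucleotides (capitals), the same number as the COLEC11 promoter window, and neither GGGCGG nor TATAAA. The window is overlapped by 1 annotated exon, and which transcript that exon belongs to was not examined. In CDDD11-8 replicate 1, peaks in COLEC11 also began before this point, from 1.86 kb on, whereas in replicate 2 they began at 9.43 kb.

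At RAPSN a peak lay at 0 and 0 of the 4 annotated starts with vehicle and at 4 and 4 with CDDD11-8. They were its main start, one 0.00700 kb further in, a transcript start at 7.41 kb and that of RNU6-1302P, a small nuclear RNA pseudogene, at 9.08 kb. A summit within 300 bp of these starts was found at 4 of them in CDDD11-8 replicate 1 and 0 in replicate 2. At RASL11A the 3 starts had a peak in every library. At CAPN15 5 and 7 of 12 starts had one with vehicle and 11 and 9 with CDDD11-8, and the start without a peak in any library was that of the microRNA gene MIR5587 at 7.60 kb. Long peaks cover starts by their length alone, so a start inside a peak was not counted as a start in use.

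Downstream, the next gene on the strand of RAPSN is PSMC3, a proteasome ATPase subunit, whose start lies 11.3 kb past the RAPSN TES. It had a summit within 300 bp of its start in all 4 libraries (11.2-fold and 6.55-fold, then 21.2-fold and 19.6-fold). The genes after COLEC11 (ALLC, 13.6 kb away) and CAPN15 (PRR35, 5.76 kb away) had no promoter peak in any library. GTF3A, the next after RASL11A, was 149 kb away.

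Base composition differed between covered and uncovered bases in 3 of the targets. Newly covered bases of RAPSN had a GC content of 57.3% and its bases covered in no library 46.4%. The values were 55.0% and 43.9% in COLEC11 and 67.6% and 61.5% in CAPN15, while RASL11A had no base that was covered in no library, and its newly covered bases, at 45.5%, were below its whole gene at 48.4%. Such a difference was common. In 92.6% of 256 genes of at least 10 kb that were partly covered with CDDD11-8, and in 93.0% of 383 such genes with vehicle, GC content was higher in covered than in uncovered bases, with a median difference of 6.09 and 6.44 points against 10.9 in RAPSN, 10.6 in COLEC11 and 6.56 in CAPN15. The gene bodies themselves had GC contents of 52.6% (RAPSN), 45.6% (RASL11A), 51.1% (COLEC11) and 65.1% (CAPN15), higher than 86.2%, 62.5%, 81.6% and 99.8% of the 10179 genes. The part of base composition in the coverage of these genes was not tested.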

How the data were processed

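RNAPII ChIP-seq libraries from MDA-MB-453 cells (4 h, vehicle or 600 nM CDDD11-8, 2 replicates each from consecutive passages) were analysed from the peak lists of the authors. Per the study's methods, paired-end reads were aligned to GRCh37 with Bowtie 2 and peaks were called in each library with MACS2 at default settings against a paired input, without pooling replicates. The deposited pileup is a signal, the deposited fold enrichment is a ratio to local background, and the authors' q-value is on the −log10 scale (lowest value 2.00 in each list). The deposited lists hold no read totals, so depth above the study's stated minimum is unknown and no interval from counts can be given. Pileup values were whole numbers (within 0.005) for 100% of vehicle summits but for 0.323% and 3.36% in the CDDD11-8 lists, so the lists were not on 1 scale and scores were compared within lists. Input libraries (4) served only inside the authors' peak calling.

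Summits sharing a region were counted as 1 peak. Genes were protein-coding genes of GENCODE release 44 mapped to GRCh37, each as its longest isoform, with length and distance filters after the study's pausing analysis. Coverage was the percent of bases inside a peak, with no minimum beyond the caller's. Each library gave 1 value, and the groups were compared by enumerating all 6 assignments of libraries to groups (exact permutation test, two-sided). Replicates were separate passages of 1 cell line, so p-values measure the spread between passages. The members and lists were chosen with earlier results of these data known, and the unbroken length, peak-free stretches, gene segments, newly covered bases, gap summits and GC comparisons were chosen after the loci were seen. The genes named are the 8 members, annotated genes in the gaps or starting in a target, and the 3 genes nearest the limit. The next genes downstream were added later. Promoter CpG counts and motifs were read from the genome, and 1 target's promoter window is not reported here.

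Alternatives were equal numbers of peaks (the strongest 21842 of each list by q-value), a −log10 q-value of at least 5, peaks within 1 kb joined, the canonical isoform, other gap, promoter and gene body windows, bins with a summit in place of covered bases, gaps of up to 50 kb, each library left out and a replicate block. Gap coverage, unbroken coverage and peak-free stretches were tested on simulated data and recovered in 500 of 500 planted pairs each. Scripts ran under Python 3.11.15 with matplotlib 3.10.9, scipy 1.17.1, pandas 2.3.3 and numpy 2.4.6.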

Additional observations from a re-analysis of the deposited data

How the results depend on the processing

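The lower mean coverage of the 4 gaps and of the upstream gene bodies with CDDD11-8 kept its direction under every alternative tried. Leaving out 1 library could not have reversed it, because every CDDD11-8 mean lay below every vehicle mean. The replicate block reused the main difference, so it could not either. For the gaps the mean difference was −16.5 points at equal numbers of peaks and −21.2 at the stricter q-value. With 1 library left out it lay between −34.0 and −18.3 points for the gaps and −10.7 and −6.70 for the bodies. None of these could pass a threshold in this design. Permuting within a replicate block gave an exact p of 0.5 for both (−26.1 and −8.70 points), the smallest it allows. Deviations within the groups correlated at −0.042 over 3876 gaps, so no effect shared by libraries of the same replicate number was seen in this measure. Whether the libraries were paired by passage cannot be settled from it. Of the single loci, the RPL21 to RASL11A gap differed by 0 with peaks joined (17.9 at equal numbers of peaks, and −0.0666 without vehicle replicate 1 to 5.29 without vehicle replicate 2), the RAB11FIP3 to CAPN15 gap by 0 when trimmed, the RPL21 and RPS7 bodies by 0 with peaks joined, and the CELF1 body by 0.0155 at equal numbers of peaks. The differences of 0 arose where both groups were covered alike. The number of genes past the limits moved from 4 to 9 at equal numbers of peaks, and ranged from 4 to 12 with 1 library left out (7 without vehicle replicate 1 or 2, 12 without CDDD11-8 replicate 2). All 4 targets were among them except at the stricter q-value, which dropped RASL11A, and with peaks joined, which dropped CAPN15. Gaps covered further with CDDD11-8 went from 699 of 3876 (18.0%) to 1067 when gaps of up to 50 kb were allowed. Allowing longer gaps also enlarged the set examined. The share in the larger set was not computed, so this rise is not read as a shift. The cause of the other changes was not tested. Counting target summits from the TSS on, chosen after seeing the data, moved the mean log2 ratio of target to upstream promoter from −1.73 to −1.43. Of 227 recomputed values, 210 were counted as unchanged. For gap and upstream body coverage this required the same direction only, whatever the size. There the direction was fixed in advance for the replicate block, and with 1 library left out where the groups did not overlap. For the other measures the value also had to stay within the spread between replicates. Counts had to stay within 1.5 times the main count.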
